A study of Mus musculus with 12 samples.

Results

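The cyclin D switch of the cell cycle was examined in mouse hearts with altered Lemd2, through 10 of the 24062 genes of the count table. These were the D-type cyclins Ccnd1, Ccnd2 and Ccnd3, their kinases Cdk4 and Cdk6, the CIP/KIP inhibitors Cdkn1b (p27) and Cdkn1c (p57), and the INK4 inhibitors Cdkn2b (p15), Cdkn2c (p18) and Cdkn2d (p19). They were taken by symbol from a list chosen with earlier results of these data known. All 10 were found in the table and tested in every comparison.

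D-type cyclins are made when growth signals reach the cell. They bind CDK4 or CDK6, and the active kinase phosphorylates the retinoblastoma protein and its relatives p107 and p130, which then release E2F transcription factors that switch on genes for DNA replication. INK4 proteins bind CDK4 and CDK6 alone and keep the cyclin out, whereas CIP/KIP proteins bind cyclin and kinase complexes and mainly block CDK2. Mouse cardiomyocytes divide before birth, mostly leave the cell cycle in the first days after it, and in the adult are largely postmitotic, while other cells of the heart can still divide.

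The hearts came from 4 groups of 3 mice, with 1 library per mouse. The adult groups were 2-month-old Lemd2 WT mice and Lemd2 KI/KI (c.T38>G) mice, which carry a global knock-in of a point mutation on both alleles. The young groups were studied at P1 (postnatal day 1) and comprised Lemd2-floxed mice, which keep the gene and served as controls, and Lemd2 cKO mice, in which floxed Lemd2 is deleted by Cre under the cardiac Myh6 promoter, so that the deletion is directed to cardiomyocytes and other heart cells keep the gene. All 12 samples were whole hearts, in which fewer cells of a type and less RNA per cell cannot be told apart. The adult and P1 mice belong to different lines, and every comparison across age therefore also compares lines.

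Library totals ranged from 37.1 to 44.8 M reads counted on genes. Levels are given as CPM, counts scaled to library size with TMM factors over the 12 hearts. Lemd2 was at 32.0 to 34.8 CPM in WT, 24.8 to 25.6 in KI/KI, 24.3 to 25.4 in floxed and 6.59 to 13.1 in cKO hearts. The 8 cardiomyocyte markers, Myh6 and Ttn among them, summed to between 32905 and 94930 CPM in the 12 hearts. Some libraries stood apart. Adult WT replicate 3 held 102 CPM of 7 lung markers, 95.3 of it from Scgb1a1, and 60.4 CPM of 4 adipose markers. Lung markers also reached 35.8 CPM in KI/KI replicate 4, 30.9 and 49.2 CPM in floxed replicates 1 and 2 and 23.1 CPM in cKO replicate 4. The remaining libraries held 5.49 CPM or less of them. KI/KI replicate 5 had the most fibroblast RNA and the least cardiomyocyte RNA of the adult hearts. Among the P1 hearts, cKO replicate 4 had almost no Y-linked RNA (mean log2 CPM of -3.92 over 4 genes, against 5.56 to 6.25 in the other 11 libraries). In cKO replicate 6, 16 genes of cycling cells summed to 2167 CPM, against 842 and 1061 in the other cKO hearts and 577 to 804 in floxed hearts.

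Promoters are shown for 4 members that fell between P1 and adulthood, the kinase gene Cdk4 and the inhibitor genes Cdkn1b, Cdkn2c and Cdkn2d. Each run is the 250 bases before the RefSeq transcript start, read from the RefSeq promoter table of GRCm38.p6, 5′ to 3′ on the strand of the gene. Capitals mark matches to CACGTG (the E box of the Myc and Max family), CCAAT and GGGCGG (the GC box of the Sp family), with matches read from the other strand also in capitals.
Cdk4 (chr10:127063285-127063534, plus strand): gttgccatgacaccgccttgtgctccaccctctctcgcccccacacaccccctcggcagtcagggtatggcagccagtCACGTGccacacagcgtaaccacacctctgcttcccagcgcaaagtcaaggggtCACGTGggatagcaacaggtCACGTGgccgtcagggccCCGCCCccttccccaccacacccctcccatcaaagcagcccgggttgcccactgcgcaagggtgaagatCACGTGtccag
Cdkn1b (chr6:134920151-134920400, plus strand): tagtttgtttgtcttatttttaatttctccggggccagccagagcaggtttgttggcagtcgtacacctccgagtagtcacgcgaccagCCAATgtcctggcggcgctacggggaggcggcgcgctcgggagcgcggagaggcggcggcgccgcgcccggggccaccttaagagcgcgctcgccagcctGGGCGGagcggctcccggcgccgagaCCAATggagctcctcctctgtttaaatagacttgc
Cdkn2c (chr4:109666757-109667006, minus strand): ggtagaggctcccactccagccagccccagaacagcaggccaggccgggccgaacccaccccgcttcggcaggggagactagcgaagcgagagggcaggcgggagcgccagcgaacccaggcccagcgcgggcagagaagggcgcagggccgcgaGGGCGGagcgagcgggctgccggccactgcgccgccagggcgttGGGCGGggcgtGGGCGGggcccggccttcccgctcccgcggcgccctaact
Cdkn2d (chr9:21291210-21291459, minus strand): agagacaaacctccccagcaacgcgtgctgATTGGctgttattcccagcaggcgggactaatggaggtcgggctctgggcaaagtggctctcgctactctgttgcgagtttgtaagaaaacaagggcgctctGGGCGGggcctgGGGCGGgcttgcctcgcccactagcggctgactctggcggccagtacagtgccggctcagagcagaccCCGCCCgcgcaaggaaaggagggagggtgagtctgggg

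Entries were matched by symbol for 7 of the 10 genes, with 9 promoters in all, while Ccnd1, Ccnd2 and Cdkn1c were not matched. The Cdk4 promoter held 4 E boxes, which began 172, 118, 98 and 11 bases before the transcript start. At least 1 E box was found in 6.02% of the 32851 promoters of the table, and 4 or more in 7 of them, or 0.0213%. The Cdkn1b promoter held CCAAT at 161 and 35 bases before the start. The Cdkn2d promoter held that box on the other strand, at 220 bases, and 3 GC boxes. The Cdkn2c promoter, the first of 2 in the table, also held 3 GC boxes and no CCAAT box. Boxes of that kind occurred in 33.8% and GC boxes in 32.7% of all promoters. The E2F sites TTTCGCGC and TTTGGCGC, found in 0.655% of promoters on either strand, were in none of the 9. No marked matches overlapped in the promoters shown, and a match to letters is not evidence that a factor binds. The GENCODE annotation used for gene coordinates starts Cdkn2c and Cdkn2d further upstream than these RefSeq transcripts. By its coordinates the run shown for Cdkn2c lies wholly, and that for Cdkn2d mostly, inside the gene.

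Of the 10 genes, none passed the test in either Lemd2 model, whereas 7 differed between the control hearts of the 2 ages. In KI/KI against WT hearts, 0 of 10 members passed an adjusted p of 0.05 in the quasi-likelihood test of edgeR, as did 0% of the 14592 genes tested. Ccnd2 was the member with an unadjusted p under 0.05, as were 16.2% of all genes, and DESeq2 called the same 1 member. The groups did not overlap for 3 members, with Ccnd2 higher and Cdk4 and Cdkn1b lower in KI/KI, against 21.8% of all genes. In P1 cKO against floxed hearts, 0 of 10 members passed the test, where 16.9% of 15317 genes did. Here 4 members, Ccnd3, Cdk4, Cdkn1b and Cdkn2d, had an unadjusted p under 0.05, against 34.6% of all genes, which is near their share. DESeq2 called 1 member (Cdkn2d), and the groups did not overlap for Ccnd3 and Cdkn2d, both higher in cKO, against 39.0% of all genes. In adult WT against P1 floxed hearts, 6 of 10 members fell and 1 rose, against 33.4% lower and 31.8% higher among 15183 genes, or 65.2% in all, so that the share of members called was near that of all genes. Of the 7, 3 differed by more than 2-fold (Cdk4, Cdkn1c and Cdkn2b), against 27.2% of all genes. The groups did not overlap for the same 7 genes, against 70.8% of all genes. The median log2 fold change of the members was -0.04 in KI/KI, 0.17 in cKO and -0.46 in adult against P1 hearts, beside 0.00, 0.00 and -0.04 for all genes tested.

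**Figure D1:**
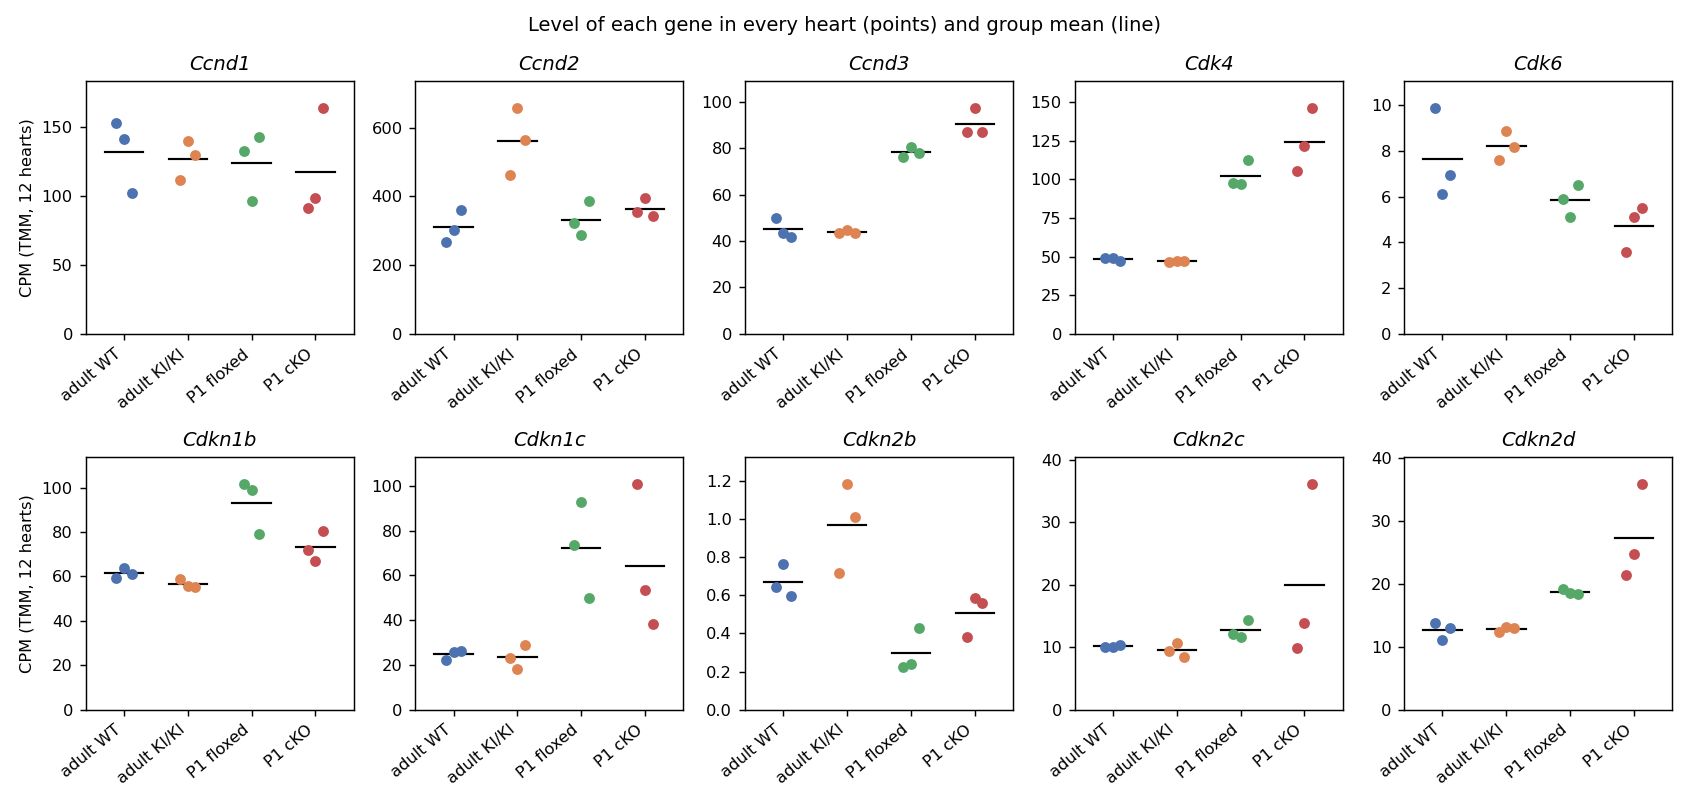
Level of each gene in CPM (vertical axis, from 0, TMM scaling over 12 hearts) in the 4 groups, with a point for each heart and a line at the group mean. Ccnd2 is higher in the 3 KI/KI hearts (464 to 657) than in the 3 WT hearts (268 to 360), Cdk4 and Ccnd3 are higher in all P1 than in all adult hearts, and 1 cKO heart stands above the other P1 hearts in Cdkn2c (36.1) and Cdkn2d (35.9).

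**Figure D2:**
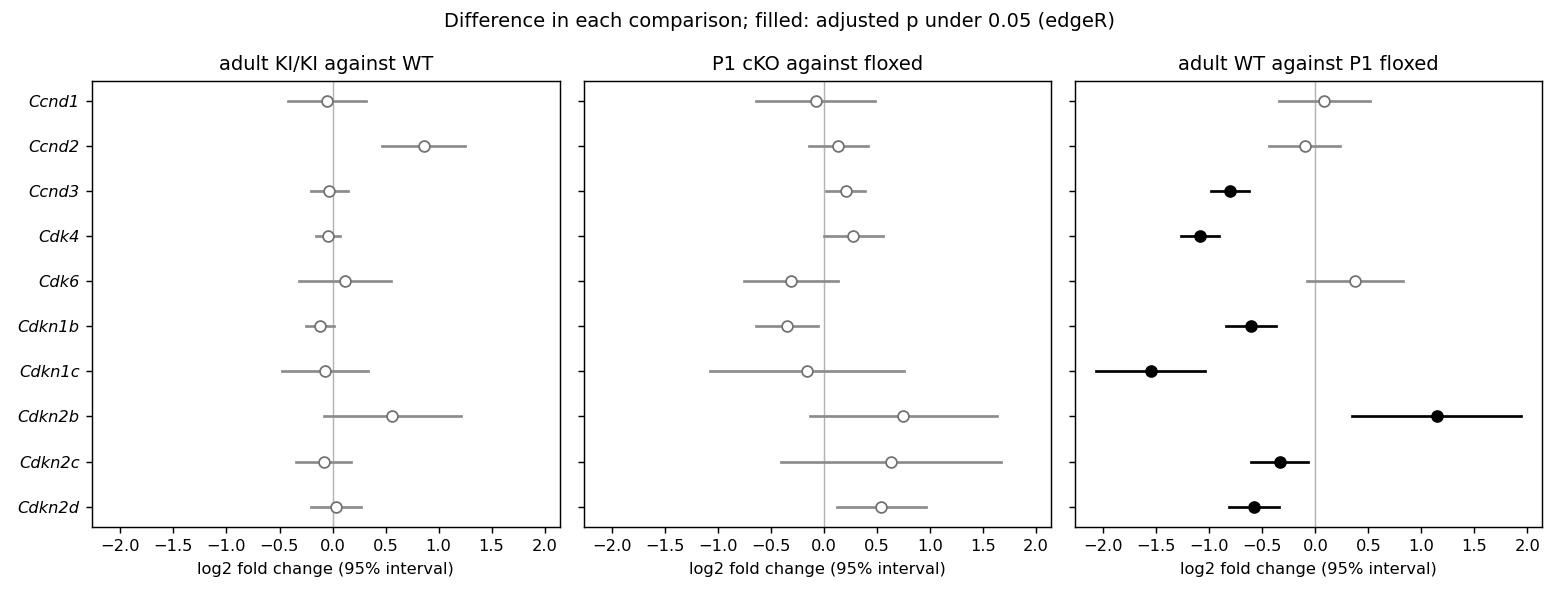
Log2 fold change (horizontal axis) of each gene with its 95% interval in 3 comparisons, filled black where the edgeR adjusted p was under 0.05. No gene is filled for the Lemd2 models, while 7 are filled for adult WT against P1 floxed hearts, 6 to the left of 0 and Cdkn2b to the right.

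The D-type cyclins were led by Ccnd2. Per kb of merged exon, which allows genes to be compared with each other, Ccnd2 was at 46.2 ± 6.94 CPM per kb in WT hearts (mean ± SD, n = 3), Ccnd1 at 35.3 ± 7.07 and Ccnd3 at 18.4 ± 1.74. Ccnd2 and Ccnd1 overlapped in WT hearts, since Ccnd1 had the larger share of the 3 cyclins in replicate 1 (40.3%, against 39.5% for Ccnd2). In floxed hearts Ccnd2 was at 49.4 ± 7.37, Ccnd1 at 33.0 ± 6.52 and Ccnd3 at 32.0 ± 0.88 CPM per kb, with the last pair within their spread. Ccnd2 made up 39.5 to 54.8% of the 3 cyclins in WT, 59.2 to 63.8% in KI/KI, 41.8 to 45.1% in floxed and 39.2 to 47.2% in cKO hearts. The KI/KI hearts thus had the 3 highest Ccnd2 shares of the series.

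Ccnd2 (cyclin D2; chromosome 6, 127125162 to 127152193, minus strand, GRCm38) measured 268, 302 and 360 CPM in WT and 464, 657 and 564 CPM in KI/KI hearts. Every KI/KI heart was above every WT heart, by 1.81-fold in the fit. The log2 fold change was 0.86 (SE 0.16, 95% interval 0.47 to 1.25), the largest of the 10 members in this comparison, with an adjusted p of 0.193. With DESeq2, which called 3.54% of all genes, the adjusted p was 8.64e-05. With all 12 hearts in 1 edgeR fit, which called 0.305% of all genes, it was 0.0459. Over all the alternatives other than leaving out a heart it ranged from 8.64e-05 to 0.223. Leaving out 1 heart at a time kept the log2 fold change between 0.73 and 0.99, with adjusted p from 0.0593 to 0.518. Exons of Ccnd2 share 372 of their 6711 bases with the antisense gene Gm43126, which is not in the count table. Since the strand setting of the counting is not known, its reads may be mixed with those of Ccnd2.

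Markers of other cell types differed in level between the same hearts. The 8 fibroblast markers summed to 1362 to 1541 CPM in WT and 1579 to 2533 CPM in KI/KI hearts, and the 7 myeloid markers to 223 to 355 and 370 to 450 CPM. The 8 cardiomyocyte markers summed to 82819 to 94930 CPM in WT and 60976 to 84073 CPM in KI/KI. All 8 fibroblast, 8 endothelial and 7 myeloid markers had a log2 fold change above 0 and all 8 cardiomyocyte markers below it. None of these passed the edgeR test, with 2, 1, 3 and 1 at an unadjusted p under 0.05. KI/KI replicate 5, the highest in Ccnd2, was also the highest in fibroblast and the lowest in cardiomyocyte markers. Their part in the Ccnd2 difference was not tested. Without that heart the log2 fold change of Ccnd2 was 0.73 (adjusted p = 0.313).

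In the P1 hearts, Ccnd2 was at 321, 288 and 385 CPM in floxed and 356, 395 and 343 CPM in cKO hearts. These groups overlapped, with a log2 fold change of 0.14 (SE 0.12, interval -0.15 to 0.42, adjusted p = 0.446). The difference between the models, cKO against floxed less KI/KI against WT, was -0.72 for Ccnd2 (SE 0.21, interval -1.18 to -0.25) with an adjusted p of 0.0971. In that test 2.43% of 15729 genes and 0 of the 10 members were called, with 4 (Ccnd2, Ccnd3, Cdk4 and Cdkn2d) at an unadjusted p under 0.05, as were 20.0% of all genes. DESeq2, which called 8.77% of genes there, gave Ccnd2 an adjusted p of 0.0254. Between adult WT and P1 floxed hearts Ccnd2 differed by -0.10 on the log2 scale (SE 0.14, interval -0.44 to 0.23, adjusted p = 0.562).

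Ccnd3 (cyclin D3; chromosome 17, 47505051 to 47599691, plus strand) measured 76.4, 80.6 and 78.0 CPM in floxed hearts and at 49.8, 43.5 and 41.8 CPM in adult WT hearts. The groups were apart, and Ccnd3 fell by 0.81 on the log2 scale from P1 to adult hearts (SE 0.08, adjusted p = 5.15e-05). In cKO hearts it was at 87.0, 97.3 and 86.8 CPM, each above every floxed heart. The log2 fold change was 0.20 (SE 0.08, interval 0.02 to 0.39, adjusted p = 0.108). In KI/KI hearts, at 43.7, 44.8 and 43.3 CPM, it lay inside the range of WT hearts. Exons of Ccnd3 share 361 of their 2447 bases with Bysl on the opposite strand. The strand setting of the counting is not given, so reads of the pair may be mixed. Bysl moved in the direction of Ccnd3 in cKO hearts, by 0.33 (adjusted p = 0.226). It moved the other way between ages, by 0.28 (adjusted p = 0.160), and in KI/KI hearts, by 0.09 (adjusted p = 0.590).

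Ccnd1 (cyclin D1; chromosome 7, 144929931 to 144939925, minus strand) passed the test in no comparison. It was at 153, 141 and 102 CPM in WT, 111, 139 and 129 in KI/KI, 132, 96.0 and 142 in floxed and 91.0, 98.1 and 163 in cKO hearts. All 4 groups overlapped, with wide intervals of -0.42 to 0.31 on the log2 scale for KI/KI, -0.64 to 0.48 for cKO and -0.34 to 0.51 for adult against P1 hearts. The cKO heart at 163 CPM was replicate 6. Exons of Ccnd1 share 1100 of their 3740 bases with LTO1 on the opposite strand (Oraov1 in the count table). The strand setting of the counting is not given in the sources used here, so reads of the pair may be mixed. Oraov1 rose by 1.00 on the log2 scale in adult against P1 hearts (adjusted p = 0.000258). In KI/KI and cKO hearts it changed by 0.01 and -0.01 (adjusted p = 0.966 and 0.970). Its part in the Ccnd1 values was not tested.

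**Figure D3:**
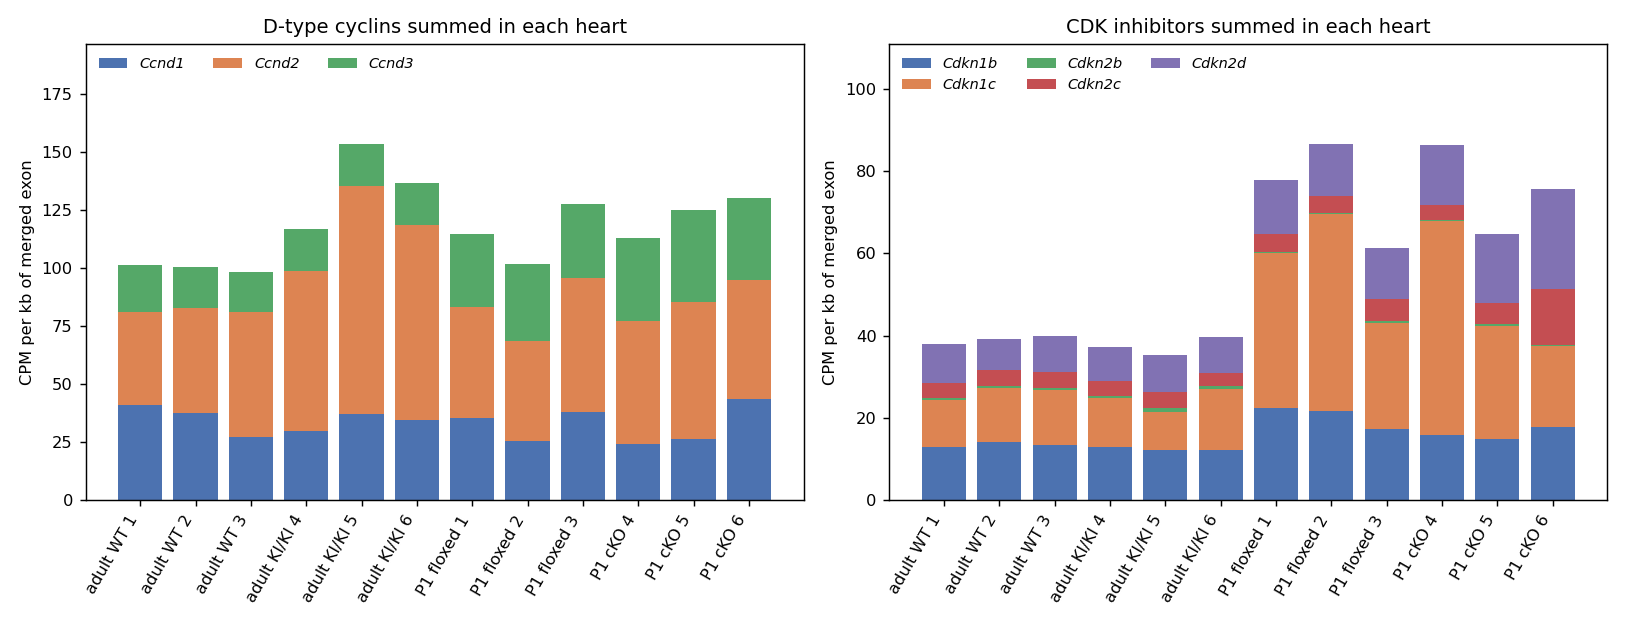
Summed level in CPM per kb of merged exon (vertical axis) of the 3 D-type cyclins (left) and the 5 inhibitors (right) in each of the 12 hearts, with a colour for each gene. The cyclin sum is 98.1 to 101 in WT and 117 to 153 in KI/KI hearts, where Ccnd2 takes the largest part, and the inhibitor bars are taller in P1 than in adult hearts.

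Of the kinases, Cdk4 was almost all of the RNA. Per kb it made up 96.6 to 99.4% of the summed level of Cdk4 and Cdk6 in each of the 12 hearts. Cdk4 (chromosome 10, 127063534 to 127067920, plus strand) measured 97.6, 96.9 and 112 CPM in floxed hearts and at 49.2, 48.9 and 47.1 CPM in adult WT hearts. Its level in the adult was thus 2.12-fold lower, with no overlap (log2 fold change -1.09, SE 0.08, adjusted p = 1.13e-05). KI/KI hearts, at 46.6, 47.0 and 47.0 CPM, lay just under the WT hearts, without passing the test (log2 fold change -0.04, SE 0.05, interval -0.16 to 0.07, adjusted p = 0.676). In cKO hearts Cdk4 was at 106, 121 and 146 CPM, with the first inside the floxed range. The log2 fold change was 0.28 (SE 0.12, adjusted p = 0.143), and 0.15 without cKO replicate 6 (adjusted p = 0.294).

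On the opposite strand Tspan31 overlaps Cdk4, and shares 641 of its 2053 exon bases. Tspan31, named for that overlap, moved the other way with age and rose by 0.30 on the log2 scale in adult against P1 hearts (adjusted p = 0.00677), from 48.5 to 55.6 CPM in floxed to 61.5 to 65.3 CPM in WT hearts. In cKO hearts it moved in the direction of Cdk4, by 0.19 (adjusted p = 0.137). In KI/KI hearts it changed by 0.03 (adjusted p = 0.793). Since the strand setting is not known, reads of this pair may be mixed, and their part in the Cdk4 values was not tested.

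Cdk6 (chromosome 5, 3341485 to 3531008, plus strand) was low, at 0.663 ± 0.172 CPM per kb in WT and 0.507 ± 0.0616 in floxed hearts (n = 3 each). It was at 9.87, 6.11 and 6.94 CPM in WT, 7.60, 8.88 and 8.15 in KI/KI, 5.89, 5.11 and 6.52 in floxed and 3.59, 5.10 and 5.52 in cKO hearts. Neighbouring groups overlapped, and the log2 fold change was 0.12 (adjusted p = 0.769) in KI/KI, -0.31 (0.281) in cKO and 0.37 (0.125) in adult against P1 hearts. Exons of Cdk6 share 110 of their 11525 bases with the antisense gene Gm17590.

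Both CIP/KIP inhibitors among the members were lower in the adult. Cdkn1a, a CIP/KIP inhibitor outside the members, differed by -0.05 on the log2 scale between ages (adjusted p = 0.918). Summed per kb, Cdkn1b and Cdkn1c reached 43.2 to 69.6 in floxed and 24.3 to 27.3 in adult WT hearts. Cdkn1c (p57; chromosome 7, 143458339 to 143461050, minus strand), an imprinted gene expressed from the maternal allele, measured 73.4, 92.9 and 50.1 CPM in floxed hearts and at 22.0, 25.8 and 26.1 CPM in WT hearts. This was the largest fall among the members, 2.94-fold with no overlap (log2 fold change -1.55, SE 0.22, adjusted p = 0.000549). KI/KI hearts were at 23.2, 18.1 and 28.8 CPM and overlapped WT hearts, with a log2 fold change of -0.07 (interval -0.48 to 0.33, adjusted p = 0.847).

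Cdkn1c spread widely among cKO hearts, at 101, 53.6 and 38.3 CPM in replicates 4, 5 and 6. These values enclosed all 3 floxed hearts, and the interval of the log2 fold change ran from -1.07 to 0.76 (adjusted p = 0.798). The heart lowest in Cdkn1c, replicate 6, was the highest of the P1 hearts in the cycling genes, and among floxed hearts the lowest in Cdkn1c, replicate 3, was also the highest in them (804 CPM, against 578 and 577). In contrast, the P1 heart highest in Cdkn1c, cKO replicate 4, was at 842 CPM of the cycling genes, above all 3 floxed hearts. Exons of Cdkn1c share 589 bases with the antisense gene Gm44732.

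Cdkn1b (p27; chromosome 6, 134920401 to 134925513, plus strand) measured 102, 98.8 and 79.1 CPM in floxed hearts and at 59.2, 63.8 and 61.0 CPM in WT hearts. It fell by 0.61 on the log2 scale from P1 to adult (SE 0.10, adjusted p = 0.00102), with all adult hearts below all floxed hearts. In cKO hearts it was at 72.1, 67.1 and 80.6 CPM. Floxed replicate 3 lay within that range and the other floxed hearts above it. The log2 fold change was -0.35 (SE 0.12, interval -0.64 to -0.06, adjusted p = 0.0931). Without floxed replicate 3 it was -0.46 (adjusted p = 0.0396), and in the fit of all 12 hearts, which called 26.1% of genes in this comparison, the adjusted p was 0.0250. KI/KI hearts were at 58.7, 55.5 and 55.3 CPM, each below every WT heart, with a log2 fold change of -0.12 (SE 0.06, adjusted p = 0.355).

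Among the INK4 inhibitors, Cdkn2d and Cdkn2c were lower and Cdkn2b higher in the adult. Cdkn2d (p19; chromosome 9, 21288410 to 21291407, minus strand) had the highest level of the 3 per kb in every heart, 8.55 ± 0.906 in WT and 12.7 ± 0.274 in floxed hearts (n = 3 each). It was at 19.2, 18.6 and 18.4 CPM in floxed and 13.8, 11.1 and 12.9 CPM in WT hearts, which did not overlap (log2 fold change -0.58, SE 0.10, adjusted p = 0.00133). With the Y-linked level as a covariate the call ended (-0.39, adjusted p = 0.131). That level was higher in every WT than in every floxed heart, so for any member this setting cannot be told apart from age. In cKO hearts it was at 21.4, 24.8 and 35.9 CPM, all above the floxed hearts. The log2 fold change was 0.54 (SE 0.18, interval 0.12 to 0.96, adjusted p = 0.0795).

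The Cdkn2d call in cKO hearts depended on the setting. DESeq2, which called 23.8% of all genes here, gave an adjusted p of 0.0312, and the fit of all 12 hearts 0.0259. Without cKO replicate 4 the log2 fold change was 0.68 (adjusted p = 0.0433), and without cKO replicate 6 it was 0.31 (adjusted p = 0.0795). KI/KI hearts, at 12.4, 13.1 and 12.9 CPM, lay inside the WT range.

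Cdkn2c (p18; chromosome 4, 109660876 to 109667189, minus strand) was at 9.90, 13.8 and 36.1 CPM in cKO and 12.1, 11.6 and 14.4 CPM in floxed hearts. A single heart, replicate 6, was above the others, and the remaining cKO hearts were below or within the floxed range. The log2 fold change of 0.63 (SE 0.44, adjusted p = 0.342) turned to -0.10 (adjusted p = 0.710) without it. In adult WT hearts Cdkn2c was at 10.03, 9.95 and 10.3 CPM, each below every floxed heart, a fall of 0.34 on the log2 scale (SE 0.12, adjusted p = 0.0333). This was the weakest of the 7 calls. It held in 1 of the 6 fits that left out a heart, the one without floxed replicate 2 (adjusted p = 0.0233), and ended without WT replicates 1, 2 or 3 or floxed replicates 1 or 3, with adjusted p between 0.0514 and 0.0885. DESeq2 gave 0.0593, and the Y-linked covariate 0.505.

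Cdkn2b (p15; chromosome 4, 89306299 to 89311039, minus strand) rested on 10 to 49 reads per heart. It was at 0.643, 0.763 and 0.598 CPM in WT and 0.226, 0.239 and 0.426 CPM in floxed hearts, all above the limit of 3 counts, which lay at 0.0809 CPM or less. It was the member that rose, 2.21-fold with no overlap (log2 fold change 1.14, SE 0.34, adjusted p = 0.0191). The call ended without WT replicate 2, floxed replicate 1 or floxed replicate 2, with adjusted p between 0.0601 and 0.0729, and with the Y-linked covariate (adjusted p = 0.240). KI/KI hearts, at 0.715, 1.19 and 1.01 CPM, gave a log2 fold change of 0.56 (interval -0.08 to 1.21, adjusted p = 0.353). The cKO hearts, at 0.379, 0.583 and 0.559 CPM, overlapped the floxed hearts, of which 1 was at 0.426. Their log2 fold change of 0.75 (interval -0.13 to 1.63, adjusted p = 0.202) was the largest of the 10 members in that comparison.

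**Figure D4:**
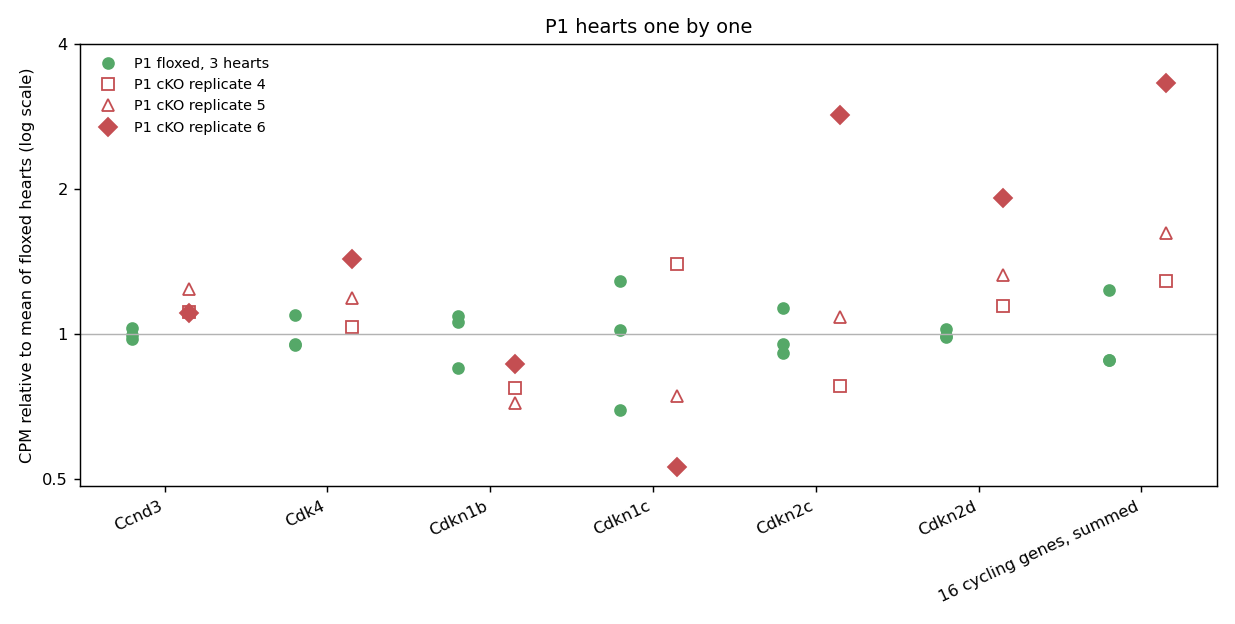
Level of 6 genes and of 16 summed cycling genes in each P1 heart, relative to the mean of the 3 floxed hearts (vertical axis, log scale). The filled diamond, cKO replicate 6, is at 2.85 for Cdkn2c, 1.92 for Cdkn2d, 1.43 for Cdk4, 0.53 for Cdkn1c and 3.32 for the cycling genes.

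For several members cKO replicate 6 lay at the end of the P1 range. It was the highest P1 heart in Ccnd1, Cdk4, Cdkn2c and Cdkn2d and the lowest in Cdkn1c, but not in Ccnd2 or Ccnd3. The summed INK4 level per kb was 38.2 in it, 18.4 and 22.4 in the other cKO hearts and 17.1 to 18.2 in floxed hearts. Summed endothelial, mural and epicardial markers also had it at the end of the P1 range, though single markers did not all do so. Emcn, an endothelial marker, was lower in it (76.8 CPM) than in the other cKO hearts (219 and 173 CPM). Mural Myh11 (47.7 CPM) and epicardial Wt1 (20.0 CPM) lay inside the range of the other P1 hearts. The 8 endothelial markers summed to 1702 CPM in replicate 6, against 1182 to 1383 CPM in the other P1 hearts. The 6 mural markers summed to 1018 CPM in it, against 580 to 978. The 6 epicardial markers were at 69.3 CPM in it, against 101 to 147. Cardiomyocyte markers summed to 37948 CPM in it, 32905 and 36082 CPM in the other cKO hearts and 43496 to 50236 CPM in floxed hearts. Of these markers, 4 of 8 fell in cKO hearts (Pln, Ryr2, Tnni3 and Ttn). The remaining ones did not pass, and 1 of the 8 lay above 0, Actn2 at 0.32 (adjusted p = 0.154). The 7 myeloid markers were at 124 to 232 CPM in cKO and 97.7 to 119 CPM in floxed hearts, where C1qa, Cd68 and Lyz2 rose in cKO. The 8 fibroblast markers were at 4195 to 4517 CPM in all 3 cKO hearts and 2795 to 2959 CPM in floxed hearts, with Tcf21, Postn and Col1a1 passing the test. The other members of that list did not pass, and 3 of them lay below 0, Pdgfra at -0.16, Dcn at -0.14 and Lum at -0.16. Without replicate 6 the same 3 genes were called higher, and Dcn and Lum were called lower. Of the cycling genes, 4 of 16 rose in cKO hearts (Ccnb1, Ccnb2, Bub1 and Cdk1) with all 3 hearts and 8 of 16 without replicate 6, so that median log2 fold changes of 1.14 and 0.58 came with more calls in the smaller set. Calls over all genes rose too, from 2587 of 15317 to 3463 of 15673. How far a changed mix of cells or that heart alone accounts for the member values was not tested.

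The rest of the pathway was read from lists of related genes, chosen like the members with earlier results of these data known. Beside the list counts, edgeR called 0% of all genes in KI/KI hearts, 16.9% in cKO hearts and 65.2% between ages. An unadjusted p under 0.05 in that test was found for 16.2% of all genes in KI/KI and 34.6% in cKO hearts. For the Rb and E2F pathway, 19 of 20 genes were tested, and the other gene, Cdkn2a (p16 and p19Arf), which was named after its values were seen, was at 0.363 CPM or less in every heart. In KI/KI hearts none of the 19 passed the edgeR test, with 4 at an unadjusted p under 0.05 (median 0.08). In cKO hearts 3 rose and 1 fell. Cdkn1a (p21, a CIP/KIP inhibitor and p53 target outside the list of members) was at 18.3, 21.8 and 18.7 CPM in floxed and 69.4, 64.7 and 61.2 CPM in cKO hearts, well apart (log2 fold change 1.73, SE 0.11, adjusted p = 0.00481). Cdc25a, a phosphatase that activates CDK2, and E2f4, an E2F of resting cells, rose by 0.41 (adjusted p = 0.0469) and 0.36 (adjusted p = 0.0438). Rbl2, which encodes p130, fell by 0.67 (adjusted p = 0.0247), from 56.8 to 79.8 CPM in floxed to 40.5 to 46.5 CPM in cKO hearts. Without cKO replicate 6 the called genes were Cdkn1a and Ccna2, higher, and Rbl2 and Cdk2, lower. The median over the 19 genes was 0.38 in cKO hearts.

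With age, 13 of these 19 genes fell and 4 rose, beside 33.4% lower and 31.8% higher among all genes, with a median log2 fold change of -0.99. The largest log2 fold changes among them were those of Ccna2, cyclin A2, at -3.75 (adjusted p = 5.72e-06), E2f8 at -2.94 (2.97e-05), E2f1 at -2.76 (3.69e-05) and E2f2 at -2.14 (0.000300). All 16 cycling genes fell, with a median of -3.56, while Cdk4, with the second largest fall among the members, changed by -1.09. For the 7 DREAM and MuvB genes, which repress or activate cell cycle genes with p130 and B-Myb, 5 fell and 1 rose with age, among them Mybl2 at -3.01 (adjusted p = 0.000566), Foxm1 at -2.77 (2.19e-05), Lin9 at -1.58 (7.48e-06) and Lin52 at 1.03 (5.11e-05). None of them passed the test in KI/KI or cKO hearts, with 0 and 1 at an unadjusted p under 0.05 and medians of 0.01 and 0.06.

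Genes for assembly and turnover of cyclins and inhibitors numbered 18, all tested. None passed in KI/KI hearts, with 1 at an unadjusted p under 0.05 (median -0.01). In cKO hearts 2 rose and 4 fell (median -0.07). Cks1b, a cofactor of the ligase that degrades p27, rose from 16.4, 20.0 and 21.7 CPM to 34.6, 36.3 and 46.3 CPM (log2 fold change 1.01, SE 0.14, adjusted p = 0.00858). Usp2, a deubiquitinase that stabilises cyclin D1, fell (log2 fold change -0.85, adjusted p = 0.00887), as did Fbxo31 (-0.77, 0.00688) and Fbxw7 (-0.74, 0.00716), receptors of ubiquitin ligases. Fbxo31 was at 25.6, 27.6 and 24.0 CPM in floxed and 14.6, 15.1 and 15.8 CPM in cKO hearts, with no overlap. With age 7 rose and 6 fell (median -0.02), beside 31.8% higher and 33.4% lower among all genes. Skp2, the substrate receptor for p27, was at -2.44 (adjusted p = 0.000720) and Cks1b at -2.27 (5.97e-06), while Fbxo31 rose by 2.28 (4.05e-06) and Uhmk1, a kinase of p27, by 1.78 (1.13e-05).

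Of 20 transcription regulators known to act on these genes, none passed in KI/KI hearts, with 5 at an unadjusted p under 0.05 (median -0.03), and 2 rose and 3 fell in cKO hearts (median 0.04). Myc, which binds E boxes such as those shown for Cdk4, was at 14.1, 15.6 and 14.5 CPM in floxed and 34.1, 30.7 and 26.6 CPM in cKO hearts (log2 fold change 1.05, SE 0.13, adjusted p = 0.00674). The genes that fell were Foxo3 at -0.54 (adjusted p = 0.0485), Smad3 at -0.51 (0.0350) and Meis1, a homeobox factor of the postnatal heart, at -0.49 (0.0114), and Foxo3 was not called without cKO replicate 6. In adult against P1 hearts Myc fell too, with a log2 fold change of -1.98 (adjusted p = 5.86e-05), and Tbx20 was at -1.36 (4.80e-05), whereas Foxo3 was at 1.67 (4.84e-05) and Klf2 at 0.96 (0.00532). In all, 7 of the 20 rose and 8 fell with age, beside 31.8% higher and 33.4% lower among all genes, and the median was 0.00.

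Cdkn1c shares imprinting with a group of growth genes, of which 15 of 16 were in the table. All 14 that were tested between ages fell, with a median log2 fold change of -3.06, against -1.55 for Cdkn1c. Dlk1 was at -8.35 (adjusted p = 2.41e-07), H19 at -5.51 (2.41e-07), Mest at -5.30 (4.96e-07) and Igf2 at -4.88 (1.34e-07). The 15 genes summed to 9135 to 10257 CPM in floxed and 964 to 1028 CPM in WT hearts. In cKO hearts the sum was 12041, 10334 and 7584 CPM in replicates 4, 5 and 6, in the same order as Cdkn1c. In floxed hearts it was 9135, 10257 and 9233 CPM in replicates 1, 2 and 3, an order that Cdkn1c did not share, since replicate 1 was above replicate 3 in it. In cKO hearts 1 gene rose (Slc38a4, 0.41, adjusted p = 0.0142) and 1 fell (Dlk1, -0.72, adjusted p = 0.0194) with a median of 0.06. None of the 13 tested passed in KI/KI hearts, with 1 at an unadjusted p under 0.05 (median 0.01).

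Cell type markers also differed with age. All 8 cardiomyocyte markers rose in adult WT against P1 floxed hearts (median 1.14), as did 6 of 7 myeloid and 4 of 6 mural markers. In turn 5 of 6 epicardial markers fell, and fibroblast and endothelial markers went both ways, with 2 and 1 higher and 3 and 3 lower of 8 each. Age, line and this shift in cells cannot be told apart in the 7 members that differed.

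The genes most like each member were sought by Pearson's r of log2 CPM over the 12 hearts among 15729 genes. The 12 points fall into 4 groups, and for most members r therefore mainly follows the gap between P1 and adult hearts. Cdk4 was closest to Lrrc40 (r = 0.999), Tmpo (0.996) and Lmnb1 (0.996), Ccnd3 to Scube1 (0.996), Abracl (0.992) and Gpr125 (0.992), and Cdkn2d to Pak4 (0.989), Rad21 (0.984) and Arl6ip1 (0.983). Cdkn2b was closest to Zdhhc5 (0.980), Chid1 (0.971) and Naalad2 (0.969), Cdkn1c to Vps54 (0.976), 4933439C10Rik (0.972) and Agtr2 (0.971), Cdkn2c to 2610034B18Rik (0.972), Rpa2 (0.961) and Bub3 (0.950), and Cdkn1b to Gpatch8 (0.969), Tial1 (0.968) and Luc7l3 (0.960). The members that passed in no comparison had looser neighbours. Cdk6 went with Prkdc (0.933), Cyb5r4 (0.931) and Fam160b2 (0.931), Ccnd2 with Pyhin1 (0.910), Esm1 (0.900) and Apobec3 (0.894), and Ccnd1 with Krtcap3 (0.842), Nsfl1c (0.829) and Utp6 (0.818).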

How the data were processed

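Heart RNA of 12 mice was sequenced as polyA libraries. The authors deposited raw counts per gene, made with HTSeq from reads that Trim Galore had trimmed and STAR 2.7.2b had aligned to mm10. Whether counting used strand is not given in the sources used here.

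The tests were run with edgeR 4.0.16 (R 4.3.3), every comparison on its own 6 libraries, with TMM, filterByExpr and the robust quasi-likelihood test, and Benjamini-Hochberg adjustment over all genes tested. A gene was called at an adjusted p under 0.05. The difference between models used all 12 libraries. SEs came from the test statistic. The labels give 1 mouse per library. No pair of replicates agreed within sampling noise.

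Coordinates and exon lengths came from GENCODE vM21 (GRCm38, the same build as mm10), and promoters from RefSeq. Alternatives were DESeq2 1.42.0, limma-voom (limma 3.58.1), other scalings, filters, thresholds and fits, a Y-linked covariate and each library left out. The legacy fit and the list counts without cKO replicate 6 were added after seeing the data. Scripts were tested on simulated data. The members and lists were chosen with earlier results of these data known. Genes named are the members, Lemd2, up to 4 genes per list and comparison with the largest change among called genes whose groups did not overlap, and the 3 genes most like each member. Named outside that rule, for overlap with members, were Tspan31, Bysl and Oraov1, after their values were seen, and Gm44732, Gm43126 and Gm17590. The others so named were Cdkn2a, Cdk2, Myh6, Actn2, Scgb1a1, Pdgfra, Dcn and Lum, with Ccna2 and Wt1 in cKO hearts and Cdkn1a between ages. Intervals and the limit of 3 counts cover counting or sampling error only.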

Additional observations from a re-analysis of the deposited data

How the results depend on the processing

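The number of members called was 0 in KI/KI hearts, 0 in cKO hearts, 7 between ages and 0 between the models. With DESeq2 it became 1 in KI/KI hearts (Ccnd2), 1 in cKO hearts (Cdkn2d) and 1 between the models (Ccnd2), and with all 12 libraries in 1 fit 1 in KI/KI (Ccnd2) and 2 in cKO hearts (Cdkn1b and Cdkn2d). With the Y-linked level as a covariate it was 1 in cKO hearts (Cdkn2d) and 4 between ages, without Cdkn2b, Cdkn2c and Cdkn2d (adjusted p = 0.240, 0.505 and 0.131). Between ages that level was 6.13 to 6.22 in WT and 6.07 to 6.11 in floxed hearts, so the covariate itself splits the ages. It also takes up a degree of freedom, and calls over all genes fell from 9898 to 5380. The setting therefore cannot decide whether a member differs with age. A 2-fold limit left 3 between ages. Leaving out each heart gave 0 in KI/KI hearts, 0 to 1 in cKO hearts, 5 to 6 between ages and 0 between the models. The cause of these changes was not tested. In the other settings the counts stayed within 1.5 times.

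Scaling by library totals alone moved the median of all genes between ages to -0.44, against -0.04, and the split of called genes from 4824 higher and 5074 lower to 2801 and 8202. In cKO hearts it moved the split from 1427 and 1160 to 1117 and 1440, and upper quartile scaling moved it to 1193 and 1465. Upper quartile scaling also moved the median of all genes between ages to -0.12. With library totals Cdkn2b was no longer called between ages (0.75, adjusted p = 0.0780) and Ccnd2 was (-0.50, adjusted p = 0.0177), while the 6 falls kept their direction under every scaling. Under library totals the log2 fold changes of Ccnd1 (0.033), Ccnd3 (0.048) and Cdk4 (0.033) in KI/KI hearts and of Ccnd1 (-0.32) and Cdk6 (-0.029) between ages changed sign, relative to shifts of 0.08 and -0.44 in all genes. The Y-linked covariate turned Ccnd1 in cKO hearts (0.079) and Ccnd1 (-0.14) and Ccnd2 (0.10) between ages. With a heart left out, signs changed only for values not called. In KI/KI hearts Ccnd1 ranged from -0.20 to 0.059, Ccnd3 from -0.073 to 0.042, Cdk6 from -0.025 to 0.33, Cdkn1c from -0.25 to 0.081 and Cdkn2d from -0.055 to 0.088. In cKO hearts Ccnd1 ranged from -0.38 to 0.063, Cdkn1c from -0.67 to 0.10 and Cdkn2c from -0.10 to 0.95, and between ages Ccnd1 from -0.071 to 0.26 and Ccnd2 from -0.20 to 0.030.

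With the replicate number as a block, 7 members were called between ages, the same genes, and 0 between the models, where the count over all genes went from 383 to 0. Adult WT and floxed hearts with the same number did not deviate together (r from -0.54 to -0.24 over genes). Pairs of unlike number ranged from -0.30 to 0.44. Deviations from a group mean of 3 hearts depend on each other, so these values cannot decide what a shared number stands for. KI/KI and cKO hearts were not compared in this way. Of 648 single values recomputed, 592 kept their direction and side of the threshold. With 3 hearts a group, small differences such as those of the KI/KI hearts could not be told from 0 where their intervals include it.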
